A study of Mus musculus with 4 samples.

Results

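Early granulocyte progenitors were described here as the cells of donor bone marrow that held transcripts of both Mpo and Elane but few transcripts of later granulocyte or monocyte genes. Transcripts were counted by unique molecular identifiers (UMIs), each marking 1 captured molecule. Of 44151 cell barcodes, 41122 showed 500 or more genes with no more than 10% of UMIs from mitochondrial genes, and these were kept. A kept cell was counted as an early granulocyte progenitor with at least 5 UMIs of Mpo, at least 5 of Elane, at most 2 of Camp and Ngp together, at most 1 of Ly86 and F13a1 together, and 0 of Siglech. The rule found 777 of the 41122 kept cells, or 1.89% (exact binomial 95% interval 1.76% to 2.03%). The members were chosen by their measured values, so the levels of the gating genes are a description, and each contrast below between cells inside and outside the rule carries no test.

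The cells came from 4 samples of hematopoietic stem and progenitor cells (HSPCs), 2 labelled Mut and 2 labelled WT, with 20000 sorted donor cells per sample entering droplet capture by the 10x Genomics 3' method. The Mut donors were heterozygous for a Srcap mutation, whose change in the allele the labels do not give, and the WT donors had no Srcap mutation by label. Srcap encodes the motor subunit of a remodelling complex that exchanges H2A for H2A.Z in nucleosomes. All donor cells were CD45.2, an allele of a pan-leukocyte antigen by which they are told from competitor cells, the strain is given as C57BL/6, and all samples were taken 20 weeks after competitive transplantation, in which donor and competitor marrow rebuild the blood of 1 recipient. The barcodes carry suffixes 1 to 4, called library 1 to library 4 here, and which suffix is which sample is not given in the sources used here. Mut and WT were therefore not compared, and each library is described on its own with no mean, SD or p-value. The 4 libraries held 144385614, 121282354, 119134008 and 112027160 UMIs, and their kept cells had a median of 9824 to 10226.5 UMIs.

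Granulocyte progenitors are the marrow cells in which neutrophil granules first appear. They fill the azurophil, or primary, granules with myeloperoxidase (Mpo) and the serine proteases neutrophil elastase (Elane), proteinase 3 (Prtn3) and cathepsin G (Ctsg), and make the specific and gelatinase granule proteins such as lactoferrin (Ltf) and cathelicidin (Camp) later. The transcription factors C/EBP-alpha and PU.1 open this program, Gfi1 and C/EBP-epsilon carry it towards granulocytes, and Irf8 favours monocytes and dendritic cells.

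The 4 marker genes of the population are shown by their promoters, because PU.1, C/EBP and MYB are the factors usually named for them. The sequences run from 250 bases before to 50 bases after the RefSeq start of the gene on its own strand, in the GRCm38.p6 build, 5' to 3', with motif matches in capitals.
Mpo, chr11:87793534-87793833, + strand: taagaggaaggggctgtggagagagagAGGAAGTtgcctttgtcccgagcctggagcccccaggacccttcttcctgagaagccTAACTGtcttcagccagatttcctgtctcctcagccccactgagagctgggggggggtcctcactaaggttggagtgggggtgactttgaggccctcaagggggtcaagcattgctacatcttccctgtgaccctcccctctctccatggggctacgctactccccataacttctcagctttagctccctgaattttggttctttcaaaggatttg
Elane, chr10:79886062-79886361, + strand: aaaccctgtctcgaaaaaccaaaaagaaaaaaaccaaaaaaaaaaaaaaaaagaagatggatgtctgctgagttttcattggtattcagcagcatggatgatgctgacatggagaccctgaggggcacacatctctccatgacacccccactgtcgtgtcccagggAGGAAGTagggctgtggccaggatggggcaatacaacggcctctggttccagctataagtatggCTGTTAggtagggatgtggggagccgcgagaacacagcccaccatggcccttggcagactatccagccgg
Prtn3, chr10:79879417-79879716, + strand: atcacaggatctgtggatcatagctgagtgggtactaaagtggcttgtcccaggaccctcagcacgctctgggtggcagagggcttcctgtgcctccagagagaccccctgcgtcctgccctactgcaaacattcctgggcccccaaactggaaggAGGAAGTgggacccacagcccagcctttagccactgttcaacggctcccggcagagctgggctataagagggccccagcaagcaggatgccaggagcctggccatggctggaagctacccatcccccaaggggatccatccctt
Ctsg, chr14:56102525-56102824, - strand: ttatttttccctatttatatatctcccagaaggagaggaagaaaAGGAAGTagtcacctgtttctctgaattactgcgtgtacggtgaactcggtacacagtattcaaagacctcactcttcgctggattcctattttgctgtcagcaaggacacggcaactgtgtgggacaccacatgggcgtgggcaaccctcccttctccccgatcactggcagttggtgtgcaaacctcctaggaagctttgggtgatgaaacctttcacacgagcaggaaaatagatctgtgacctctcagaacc
The motifs searched on both strands were AGGAAGT for PU.1, CNGTTA for MYB and TTNNGCAA for C/EBP. AGGAAGT was found once in each of the 4 promoters, 223 bases upstream of the start in Mpo, 84 in Elane, 94 in Prtn3 and 206 in Ctsg, and it is found in 9.267% of 32544 promoters of the same length. CNGTTA was found in Mpo at 166 bases upstream, on the opposite strand, and in Elane at 20 bases upstream, against 23.37% of all promoters. TTNNGCAA, held by 10.82% of all promoters, is not in these 4 windows. A match describes letters, not a bound site. Cebpe, Prss57 and Prg2 are named without a promoter sequence.

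The rule took its cells in steps. Of the kept cells 3688 had at least 5 Mpo UMIs, and 1380 of these had at least 5 Elane UMIs. The Camp and Ngp limit then removed 26 cells, the Ly86 and F13a1 limit removed 577, and the Siglech limit removed 0. The 777 cells fell to 224, 186, 199 and 168 in libraries 1 to 4. These are 1.80% (exact 95% interval 1.58% to 2.05%), 1.85% (1.60% to 2.14%), 2.06% (1.79% to 2.37%) and 1.86% (1.59% to 2.16%) of the kept cells of each library. The 4 intervals overlap, and they cover counting error only.

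Early granulocyte progenitors were deeply sampled cells. They held a median of 21392 UMIs (794 to 78963) and 4249 genes, against a median of 10063 UMIs over all kept cells. Their median mitochondrial share was 2.33% to 2.68% by library, against 3.51% to 3.72% over the kept cells. Only 8 members held fewer than 5000 UMIs, all in library 2. No barcode occurred in the members of more than 1 library, although 420 barcodes of the whole matrix did and 5 members share a barcode with a cell of another library. A doublet caller marked 1 cell in all 4 libraries, so doublets were in effect not removed.

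The values at the limits show how gradual the borders are. Just inside the Elane limit, 56 cells with 5 to 9 Elane UMIs had 1702 CPM (UMIs scaled to a total of 1e6 in the pooled cells) of Prtn3, 48.2 CPM of Cebpe and 353.9 CPM of Cd34. Just outside it, 367 cells with 1 to 4 Elane UMIs had 964 CPM of Prtn3, 6.62 CPM of Cebpe and 433.0 CPM of Cd34. Just inside the Mpo limit were 7 cells with 5 to 9 Mpo UMIs, all in library 2 with a median of 919 UMIs, and just outside were 2 cells. At the monocyte limit, 194 cells with 1 UMI of Ly86 and F13a1 had 35.7 CPM of Irf8, and 139 cells with 2 or 3 such UMIs had 97.3 CPM. At the granulocyte limit, the 19 cells with 3 to 9 UMIs of Camp and Ngp had 8251 CPM of S100a8.

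The gating genes themselves were high and uneven. Mpo (ENSMUSG00000009350, chr11:87793581-87804413 in GRCm38), the peroxidase that makes hypochlorous acid, had a median of 104 UMIs per cell (5 to 428). Elane (ENSMUSG00000020125, chr10:79886247-79888215), the elastase of azurophil granules, had a median of 199 UMIs per cell (5 to 1010), with the 10th and 90th percentiles at 12 and 452. In CPM, Mpo stood at 4491, 4598, 4850 and 5136 in libraries 1 to 4, and Elane at 8714, 8493, 9658 and 11787. The spread among cells was thus far wider for Elane than the spread among libraries.

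The other 2 marker genes, which the rule did not use, went with the label. Prtn3 (ENSMUSG00000057729, chr10:79874476-79883174), the protease next to Elane, had 6403, 6080, 6940 and 7743 CPM in libraries 1 to 4, against 487 to 639 CPM in the remaining kept cells. Ctsg (ENSMUSG00000040314, chr14:56099881-56102574), the chymotrypsin-like protease of the same granules, had 5382, 5308, 6366 and 6167 CPM, against 227 to 304 CPM in the remaining kept cells. Those are averages over all other cells. The nearest ones were as rich: the 19 cells just over the Camp and Ngp limit had 14415 CPM of Prtn3 and 8598 CPM of Ctsg. A Prtn3 UMI was found in 100% of the progenitors, at a median of 21392 UMIs per cell, and in 21.9% of 334 B cells (at least 2 UMIs each of Ms4a1 and Cd79a), at a median of 8758 UMIs per cell. B cells should lack the gene, so 21.9% is a background share at their lower depth. Whether it came from free RNA or from doublets was not tested. For Ctsg the shares were 100% and 7.78%. Ltf, a marker of later neutrophils, had 0, 0, 0 and 0.248 CPM. Other later genes were present, among them Lcn2, given below. The specific and gelatinase granule list summed to 1357 to 2345 CPM, against 118 to 238 CPM in the remaining kept cells. Csf1r, the receptor for the monocyte growth factor M-CSF, had 3.28 to 5.95 CPM. Not all monocyte genes were low. The 16 genes of the monocyte program summed to 686 to 969 CPM, against 422 to 535 CPM in the remaining kept cells. Ly6c2, given below, is one of them.

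Levels within the population were ordered by Elane, which the rule used only as a lower limit. The classes of 5 to 19, 20 to 99, 100 to 299 and 300 to 1010 Elane UMIs held 113, 152, 286 and 226 cells. Their median depth was 19479, 20640.5, 21491 and 22751.5 UMIs, so deeper cells stood in the higher classes. The CPM values below are medians over the 4 libraries and are given as a description along a measured gene.

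Azurophil granule proteases were higher in each Elane class than in the class below it. Prtn3 had 1847, 2804, 6549 and 11611 CPM from the lowest class to the highest, and Ctsg had 2592, 3531, 6076 and 8292 CPM. Prss57, a serine protease of the same gene cluster as Elane, had 75.6, 137, 277 and 444 CPM. Ms4a3, a tetraspanning membrane protein of granulocyte-monocyte progenitors, had 349, 694, 1469 and 2326 CPM. The classes did not overlap between libraries in Prtn3, Ctsg or Ms4a3. The proteases of azurophil granules were graded across the 4 classes.

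Genes of later granulocyte stages followed a steeper course. S100a8, a calcium-binding protein that fills the neutrophil cytosol, had 8.4, 9.36, 528 and 2330 CPM. Its partner in time Fcnb, a ficolin of granulocyte granules, had 0, 0.443, 23.4 and 103 CPM. Ly6c2, a surface protein of monocytes and granulocyte precursors, had 22.5, 51.0, 487 and 853 CPM. In these 3 genes the step lay between 20 to 99 and 100 to 299 Elane UMIs. Ltf stayed at or near 0 in the classes.

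Cebpe (ENSMUSG00000052435, chr14:54710360-54712174), the factor needed for specific granules, took its largest step lower on the Elane scale. It had 47.1 CPM (38.2 to 88.1 over libraries) in the lowest Elane class and 200 CPM (149 to 232) in the next, then 215 and 254 CPM. Its ranges in the 2 lowest classes did not overlap. The eosinophil list was highest in that second class, where it summed to 866 CPM (139.8 to 2400), against 245 CPM (5.81 to 1234) in the lowest class and 16.8 and 7.32 CPM in the upper ones. Without the progenitors holding 5 or more UMIs of the basophil and mast or eosinophil lists, a restriction chosen after the data were seen, Cebpe had 24.0, 101, 189 and 259.7 CPM. The level in the second class was then 101 CPM (52.7 to 169.9, from 62 cells), below that of the third. Gfi1, a repressor needed for neutrophil formation, had 27.1, 42.0, 60.4 and 68.7 CPM. Cebpb and Cebpd, C/EBP factors of later myeloid cells, ran the same way at 46.8, 67.9, 115 and 161 CPM and at 33.2, 51.4, 100 and 126 CPM. Cebpa, which starts the granulocyte program, had 85.6, 101, 59.8 and 37.3 CPM, highest in the 20 to 99 class.

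Genes of stem and early progenitor cells and of basophils and mast cells ran against Elane. Cd34, a sialomucin of stem and progenitor cells, had 366, 268, 122 and 43.3 CPM. Kit, the stem cell factor receptor, had 164, 156, 103 and 76.2 CPM, and Flt3, a receptor of multipotent and lymphoid-primed progenitors, had 29.4, 17.0, 10.5 and 4.18 CPM. Gata2, a stem, mast and basophil cell factor, had 93.1, 54.4, 16.4 and 7.12 CPM, and Cpa3, a mast cell carboxypeptidase, had 503, 396, 88.2 and 6.53 CPM. Irf8 had 43.7, 39.5, 20.5 and 4.0 CPM. Calr, an endoplasmic reticulum chaperone, did not follow the order, with 1549, 1872, 1839 and 1258 CPM. The summed basophil and mast list had 712.6, 627, 148 and 29.9 CPM along the same classes. Without the progenitors rich in basophil and mast or eosinophil transcripts, Cd34 still ran down, with 454 CPM in the lowest class (47 cells) and 40.4 CPM in the highest. Cpa3 and Gata2 then had their highest values in the second class, at 28.0, 53.4, 10.4 and 4.03 CPM and at 36.0, 41.6, 10.0 and 6.36 CPM.

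**Figure D1:**
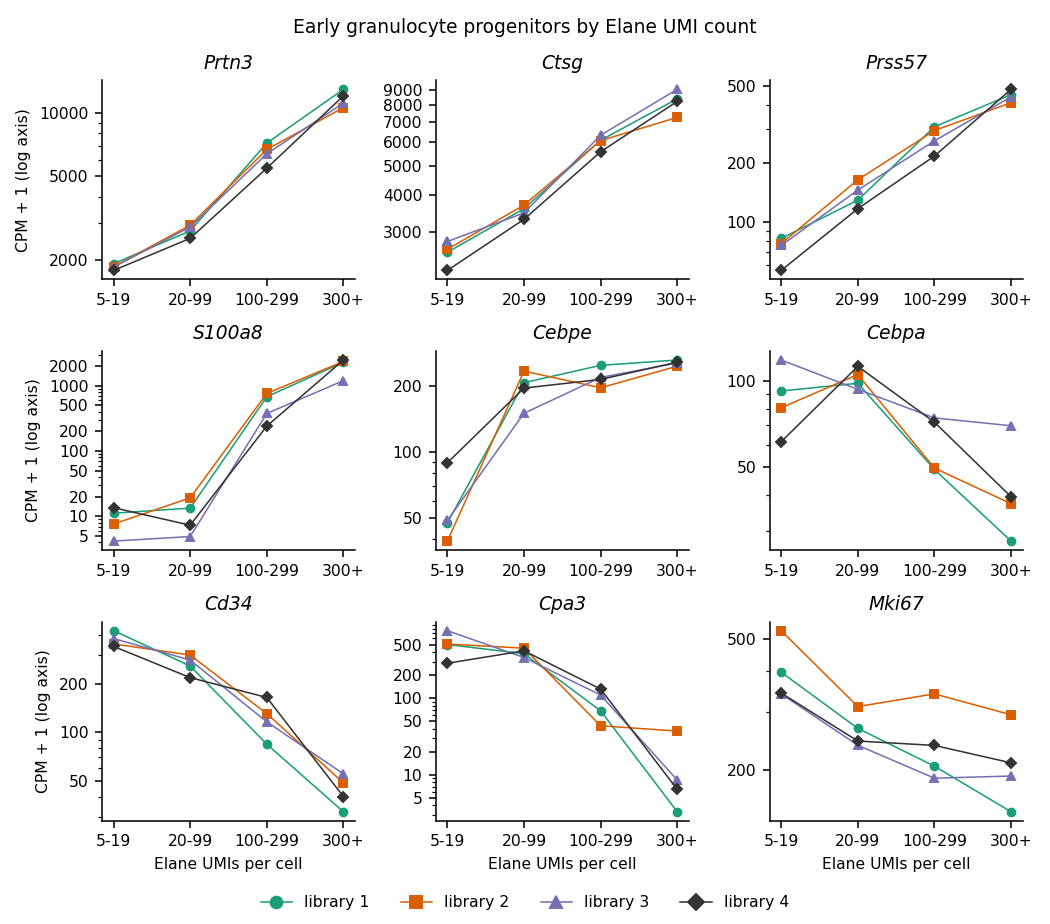
CPM plus 1 (log axis) of 9 genes over the 4 classes of Elane UMIs per cell, 1 line per library. Prtn3, Ctsg, Prss57 and S100a8 run up with Elane, and Cd34 and Cpa3 run down. Cebpe stands at 200 CPM in the class of 20 to 99 UMIs, or at 101 CPM without cells holding basophil, mast or eosinophil transcripts.

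Libraries differed in how their progenitors were spread over these classes. The highest class held 18.8%, 22%, 33.2% and 45.8% of the progenitors in libraries 1 to 4, and the lowest class held 15.6%, 18.3%, 14.6% and 8.93%. Library 4 thus had the largest share of Elane-rich cells and the smallest share of Elane-poor cells. The classes use unscaled UMIs, and the shares were not matched for depth. The median depth of the progenitors was 20062.5, 20981.5, 22773 and 22142.5 UMIs in libraries 1 to 4. The pooled CPM of library 4 was also the highest of the 4 for Elane, Prtn3, Prss57, Ms4a3 and S100a8, but not for Ctsg, which was highest in library 3, nor for Lcn2, which was highest in library 1. S100a8, for example, had 720, 872, 565 and 1204 CPM. The genotype of the libraries is not known here, so this is a difference between unlabelled libraries.

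**Figure D2:**
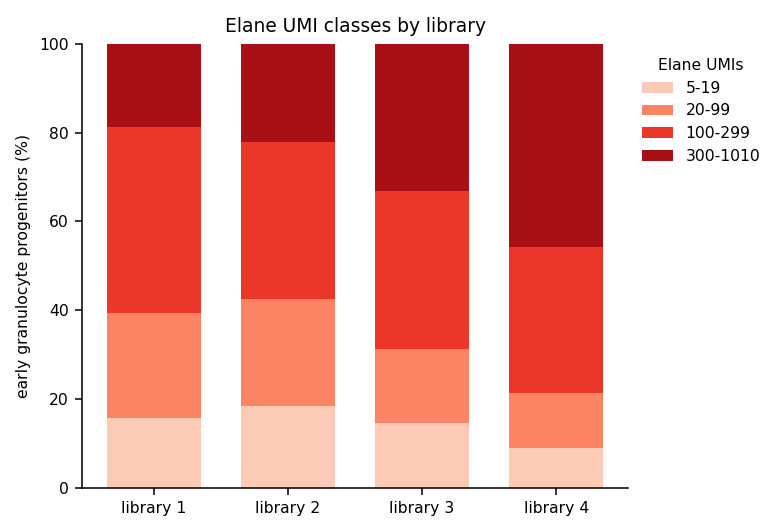
Share of the early granulocyte progenitors of each library (percent) in the 4 classes of Elane UMIs per cell, stacked to 100%. The class of 300 or more UMIs holds 18.8% of library 1 and 45.8% of library 4.

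The first comparison set the progenitors beside the nearest cells that lacked Elane. These Elane-negative progenitors had at least 5 Mpo UMIs, 0 Elane UMIs and the same other limits, and numbered 1725 cells (550, 411, 496 and 268), with a median of 17242 to 18147.5 UMIs by library. Within each library, the summed UMIs of both classes were scaled to CPM and set against each other as a log2 ratio after adding 1 CPM, which makes ratios of weakly counted genes too small. A gene is called higher or lower below where the ratio reached 1.5-fold in the same direction in 4 of 4 libraries. The rule judges size alone and tests nothing. Of 9208 genes with at least 5 CPM over both sides, 4.84% (446) were higher and 10.1% (932) were lower, with a median log2 ratio of -0.18 over all genes. Because Mpo and Elane chose the cells and genes of 1 program vary together, nothing is read from the distance of a list to these shares.

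Granule genes were higher in early granulocyte progenitors than in Elane-negative progenitors, and stem cell genes were lower. Prtn3 had 6403, 6080, 6940 and 7743 CPM in the early granulocyte progenitors and 666, 618, 610 and 549 CPM in the Elane-negative cells. Ctsg had 5382, 5308, 6366 and 6167 CPM against 721, 601, 616 and 572 CPM, a median log2 ratio of 3.25. The groups did not overlap in either gene. Of 17 measured azurophil granule genes, 7 were higher and 1 was lower, with a median log2 ratio of 0.33. Besides the serine proteases these were Cd63, a tetraspanin of azurophil membranes (2.04), Srgn, the proteoglycan that packs granule proteases (1.45), the protease inhibitor Serpinb1a (0.94) and the lysosomal hexosaminidase Hexa (0.81). The lower gene was Psap, a lysosomal lipid-degradation cofactor, with 53.8 to 70.8 CPM against 90.1 to 110 CPM. The lysosomal genes Hexa and Psap thus stood on opposite sides.

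Elane, Prtn3 and Prss57 lie together on chromosome 10. Within 100 kb of Elane the annotation has 14 other genes, of which 10 reached 5 CPM. Of these 4 were higher than in Elane-negative progenitors by the same rule. Prtn3 and Prss57 had median log2 ratios of 3.40 and 2.71. Arid3a, a DNA-binding protein, had 23.5 to 31.2 CPM in the progenitors against 7.46 to 13.6 CPM in Elane-negative cells, a median log2 ratio of 1.47. Palm, a membrane-bound protein, had 51.7 to 64.4 CPM against 20.0 to 27.9 CPM, a median log2 ratio of 1.39. The other 6 were not past the fold, among them Ptbp1 at -0.34. This window was chosen after its values were seen.

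Genes of the specific and gelatinase granules and of the later cytosol were detected at low levels. Of 17 in the list, 8 were measured, 7 of these were higher and 0 were lower. Their median log2 ratio was 5.21, or 5.05 with every library at 0 set to 3 UMIs. S100a8 had 720, 872, 565 and 1204 CPM, against 4.13, 2.37, 4.17 and 4.50 CPM in Elane-negative cells. Lcn2, the siderophore-binding lipocalin, had 33.2, 27.2, 23.3 and 23.5 CPM, against 0 to 0.395 CPM, and no ratio is given for so few counts. The genes of this list that passed the filter are those already high in the progenitors, so their count is no measure of the whole list. Hp, haptoglobin, had 231, 237, 282 and 347 CPM, against 0.783 to 1.41 CPM.

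Among 14 measured transcription factors of granulocytes, 5 were higher and 2 were lower (median 0.31). Cebpe had 210, 191, 196 and 217 CPM in early granulocyte progenitors and 1.11, 3.43, 1.10 and 2.35 CPM in Elane-negative progenitors, a median log2 ratio of 6.29. Gfi1 had 56.7, 58.5, 53.4 and 58.2 CPM against 15.9, 14.1, 15.6 and 18.4 CPM. Neither gene overlapped between the groups. Cebpd, Cebpb and Cebpa had median log2 ratios of 2.61, 1.78 and 0.89. Hoxa9, a homeobox factor of early progenitors, and Ikzf1, the lymphoid factor Ikaros, were lower at -1.09 and -0.96. Spi1, which encodes PU.1, had 193 to 220 CPM against 131 to 139 CPM and was not called. A Cebpe UMI was found in 84.7% of early granulocyte progenitors and 1.80% of B cells. With all cells thinned to 5000 UMIs, leaving out 8 progenitors below that depth, the shares were 55.5% of early granulocyte progenitors, 0.639% of Elane-negative cells and 0.549% of B cells.

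**Figure D3:**
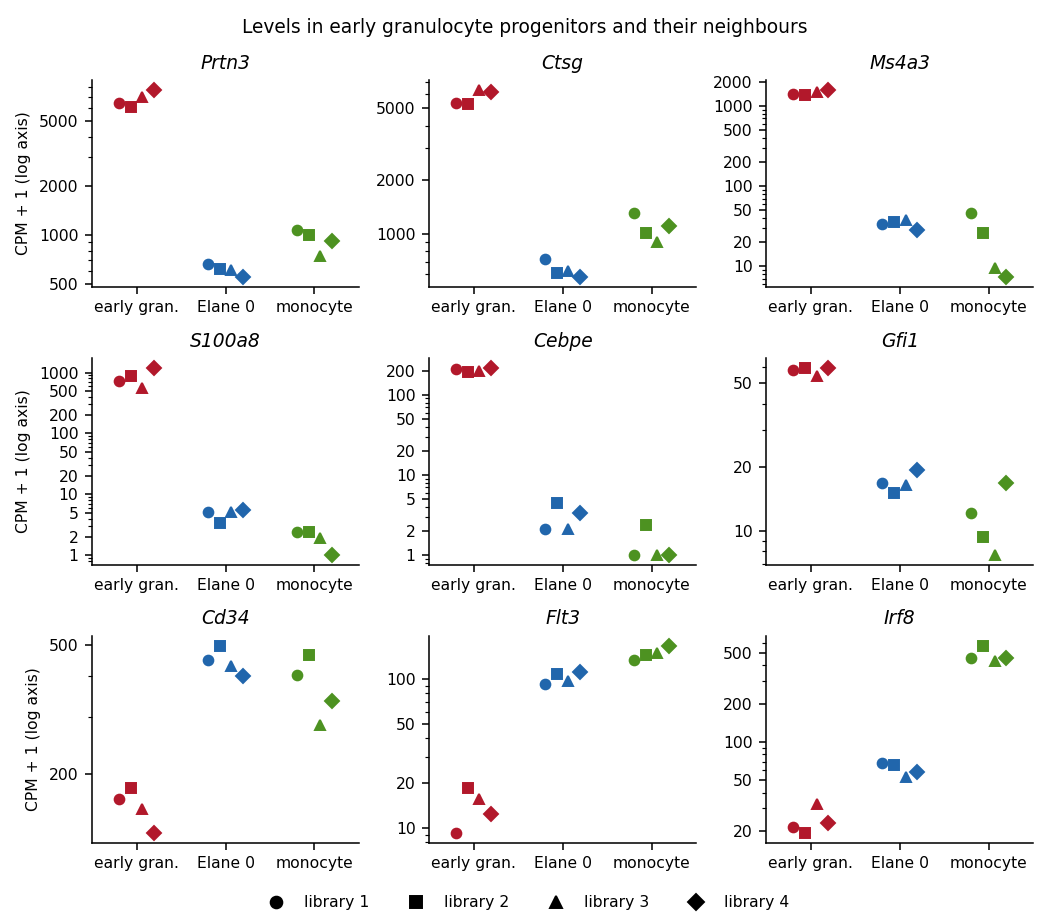
CPM plus 1 (log axis) of 9 genes in early granulocyte progenitors, Elane-negative progenitors and monocyte-side progenitors, 1 marker per library. Cebpe stands at 191 to 217 CPM in the early granulocyte progenitors and at 3.43 CPM or less in the others, while Irf8 is highest in the monocyte-side cells at 435 to 572 CPM.

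Stem and early progenitor genes were lower. Of 17 measured genes, 0 were higher and 16 were lower, with a median log2 ratio of -1.64. Flt3 had 8.19, 17.4, 14.6 and 11.4 CPM against 91.8, 107, 96.2 and 110 CPM in Elane-negative cells. Cd34 had 167, 181, 155 and 131 CPM against 447, 496, 429 and 399 CPM, a median log2 ratio of -1.46. The groups did not overlap in either gene. Hlf, a leucine zipper factor of stem cells, Ly6a, the stem cell antigen Sca-1, and Angpt1, a ligand of the Tie2 receptor, had median log2 ratios of -1.91, -1.88 and -1.84. Genes of lymphoid priming ran with them. Dntt, the polymerase that adds bases at antigen receptor joins, had 17.2 to 33.9 CPM against 155 to 289 CPM, and Satb1, a chromatin organiser of lymphoid progenitors, had 24.5 to 33.3 CPM against 105 to 135 CPM.

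Genes of protein folding and export were higher. Of 22 genes of endoplasmic reticulum folding and glycosylation, 18 were higher and 0 were lower, with a median log2 ratio of 1.15. Hspa5, the chaperone BiP, had 694, 816, 688 and 749 CPM against 239, 295, 222 and 247 CPM. Calr, calreticulin, had 1467, 1879, 1645 and 1563 CPM against 716, 810, 740 and 722 CPM. Sdf2l1, P4hb, Manf and Xbp1, a chaperone complex member, a disulfide isomerase, a secreted stress protein and the factor of the unfolded protein response, had median log2 ratios of 2.16, 1.52, 1.51 and 1.36. The 4 values of each of Hspa5 and Calr in early granulocyte progenitors lay above those in Elane-negative cells. Xbp1 also stands in the plasma cell list, whose summed level was 116 to 332 CPM against 46.5 to 222 CPM. Its part in this result was not tested.

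Metabolic lists moved in part. Of 14 glycolysis genes, 6 were higher and 1 was lower (median 0.41), and of 28 oxidative phosphorylation genes 2 were higher, Cycs at 0.72 and Atp5g1 at 0.71, and 0 lower (median 0.25). Of 6 NADPH oxidase genes, which make the oxidant burst of phagocytes, 4 were higher and 0 lower (median 1.02). Cyba, the membrane subunit p22phox, had 432 to 514 CPM against 170 to 181 CPM, and Cybb, its partner gp91phox, had 7.98 to 16.9 CPM against 0.219 to 1.32 CPM. Of 10 genes in the heme synthesis list 2 were higher and 0 lower (median 0.19). Alas1 (chr9:106233455-106248654), which makes the first heme precursor outside red cells, had 304, 309, 333 and 394 CPM against 33.0, 33.2, 29.1 and 26.2 CPM, a median log2 ratio of 3.33. Myeloperoxidase carries heme, as background. The second gene of the list was Tfrc at 1.20, the transferrin receptor and not a heme synthesis enzyme.

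Surface genes and lists of other programs were mixed. Of 17 surface receptors and adhesion genes 4 were higher and 4 were lower (median -0.31). Fcgr3, an Fc receptor for IgG, had 117, 106, 127 and 115 CPM against 4.33, 3.29, 4.06 and 3.13 CPM, and Clec12a, an inhibitory lectin of myeloid cells, had 396 to 495 CPM against 51.4 to 71.3 CPM. Csf3r, the G-CSF receptor, had 41.6 to 49.9 CPM against 37.6 to 47.8 CPM, ranges that overlap. Of 11 measured monocyte genes, with a median of 0.34, 4 were higher, led by Ly6c2 at 358 to 594 CPM against 0.791 to 3.33 CPM, and 1 was lower, Irf8 with 18.1 to 31.4 CPM against 52.4 to 67.1 CPM. Of 16 interferon response genes 0 were higher and 6 were lower (median -0.91). The MYC and ribosome biogenesis list had 0 higher and 1 lower of 20 (median -0.08), and the homologous recombination and Fanconi anemia list had 0 higher and 2 lower of 26, Brip1 at -0.70 and Fanci at -0.80 (median -0.30). Of 6 MHC class II genes 0 were higher and 1 lower (median -0.95), and of 10 immediate early and heat shock genes 0 were higher and 2 lower (median -0.63).

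The named genes with the largest ratios, taken by the library closest to 0, were mostly myeloid. Trem3, an activating receptor of myeloid cells, had 175 to 249 CPM against 1.54 to 2.72 CPM, and Igsf6, an immunoglobulin-domain protein of myeloid cells, had 123 to 164 CPM against 0.979 to 1.91 CPM. Cldn15, a claudin, had 63.3 to 81.3 CPM against 0 to 0.201 CPM, and Ms4a3 had 1346 to 1592 CPM against 27.2 to 37.0 CPM. Vcam1, an adhesion molecule that macrophages also express, had 31.8 to 40.9 CPM against 1.32 to 2.08 CPM. On the low side, after Dntt and Flt3, were Ifi203, an interferon-inducible gene, with 41.6 to 47.6 CPM against 191 to 237 CPM, and Calcrl, a receptor for adrenomedullin, with 9.48 to 12.9 CPM against 51.9 to 59.8 CPM.

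**Figure D4:**
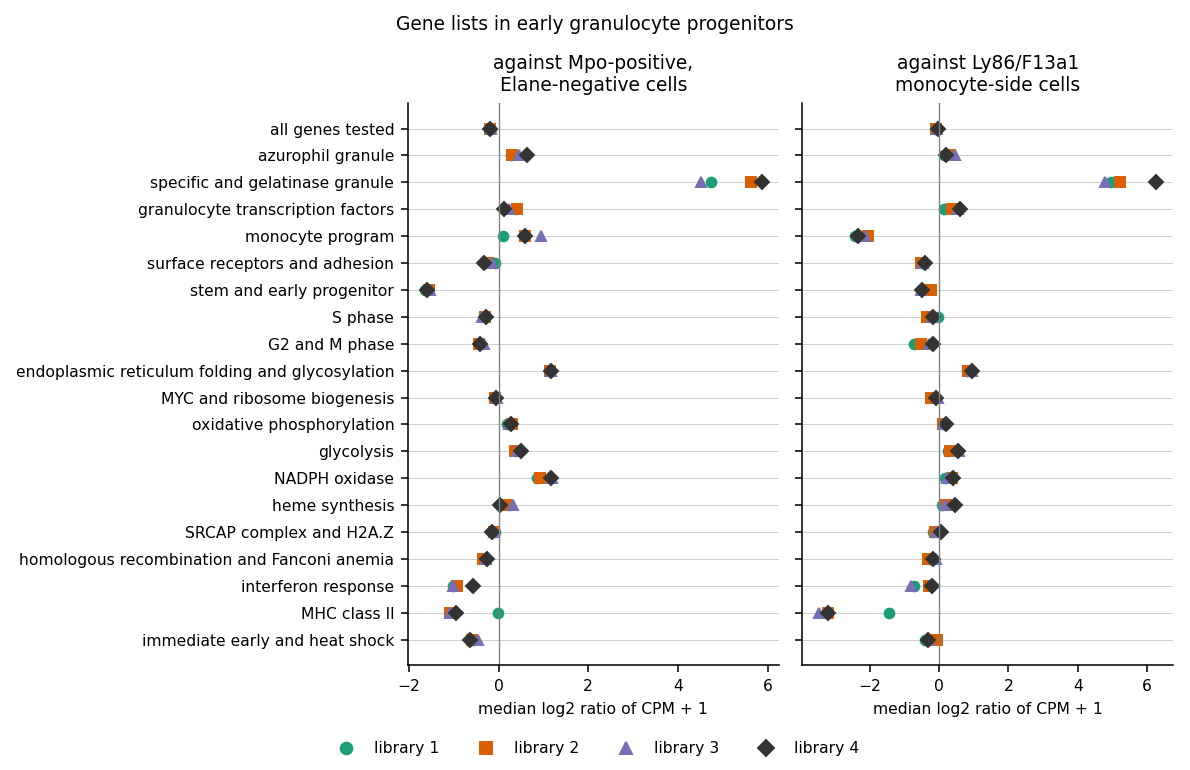
Median log2 ratio of CPM plus 1 for each gene list, early granulocyte progenitors over Elane-negative progenitors and over monocyte-side progenitors, 1 marker per library. Among the lists plotted, the specific granule list, with 8 of 17 genes measured, lies farthest above 0. The stem list is below 0 against Elane-negative cells at a median of -1.64, and the monocyte and MHC class II lists are below 0 against monocyte-side cells at -2.34 and -3.29.

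The second comparison was with the sister lineage. Monocyte-side progenitors, with at least 5 UMIs of Ly86 and F13a1, under 5 of Elane, at least 1 of Mpo, at most 2 of Camp and Ngp and 0 of Siglech, numbered 137 cells (30, 30, 47 and 30). Early granulocyte progenitors had higher granule and C/EBP genes and lower monocyte genes. Over 9039 genes, 4.17% (377) were higher and 4.99% (451) were lower, with a median log2 ratio of -0.08. Ly86 and F13a1, which divide the cells, are no part of these counts. Without library 1, 2, 3 or 4 the counts were 420 to 446 higher and 557 to 576 lower, since 3 libraries then had to share a direction.

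Monocyte genes were lower in 9 of 13 measured and higher in 2, with a median log2 ratio of -2.34. Because Ly86 and F13a1 chose the monocyte-side cells, this direction was largely set in advance. Irf8 had 20.3, 18.1, 31.4 and 22.1 CPM in early granulocyte progenitors and 459, 572, 435 and 452 CPM in monocyte-side cells, a median log2 ratio of -4.37. Csf1r had 3.28 to 5.95 CPM against 27.6 to 52.9 CPM, and Ccr2, a chemokine receptor of monocytes, had 8.41 to 14.4 CPM against 57.4 to 91.8 CPM. The groups did not overlap in these 3 genes. The 2 higher genes of the list were Ly6c2, with 358 to 594 CPM against 8.4 to 59.8 CPM, and Csf2ra, a GM-CSF receptor chain, at 1.11. Of 6 MHC class II genes 0 were higher and 6 were lower (median -3.29). This direction turned, to a median of 1.13, when the rule was applied to cells thinned to 5000 UMIs, which left 23 monocyte-side cells.

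Of 15 granulocyte transcription factors, 6 were higher and 3 were lower (median 0.40). Cebpe had 191 to 217 CPM against 0, 1.39, 0 and 0 CPM. Gfi1, Cebpb, Cebpd, Cebpa and Myb, a factor of dividing progenitors, had median log2 ratios of 2.45, 1.99, 1.77, 1.16 and 0.75. Among 17 azurophil genes 6 were higher and 1 lower (median 0.23). Cd63 led them with 757, 757, 780 and 794 CPM against 46.2, 34.8, 52.4 and 33.2 CPM, and Prtn3, Ctsg, Srgn and Prss57 followed at 2.84, 2.43, 2.22 and 2.15. Prtn3 and Ctsg were also present in the monocyte-side cells, at 740 to 1074 and 896 to 1301 CPM. Of 8 measured specific granule genes 7 were higher and 0 lower (median 5.0, or 4.37 with zeros set to 3 UMIs). Here too the measured genes are those already high in the progenitors.

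Other lists differed less evenly. Folding and glycosylation genes were higher in 13 of 22 and lower in 0 (median 0.92), and Alas1 had 304 to 394 CPM against 37.2 to 79.3 CPM. Hdc, the enzyme that makes histamine, had 112, 119, 93.1 and 110 CPM against 0, 1.39, 0 and 0 CPM. Rgcc, a cell cycle regulator, had 432 to 562 CPM against 12.6 to 23.8 CPM. Of 15 stem and early progenitor genes 1 was higher, Gata2 at 1.34, and 4 were lower, led by Flt3 at -3.50 and Cd34 at -1.31 (list median -0.31). The S phase, MYC and ribosome biogenesis, oxidative phosphorylation, SRCAP and H2A.Z, and homologous recombination lists had 0 higher and 0 lower genes. Tpm4, a tropomyosin, had 1.49 to 5.80 CPM against 74.3 to 109 CPM, and Il6st, the signal-transducing chain of the IL-6 receptor, had 3.88 to 5.29 CPM against 50.6 to 75.1 CPM.

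The third comparison, added after seeing the data, used 577 cells (134, 124, 138 and 181). They met all other limits but held more than 1 UMI of Ly86 and F13a1. The limit uses unscaled UMIs, and these cells were deeper. Their median was 24394, 25033, 27002.5 and 29067 UMIs by library, against 20062.5 to 22773 in early granulocyte progenitors. With the rule applied to cells thinned to 5000 UMIs, 273 cells were over the limit and 907 were early granulocyte progenitors. The 577 cells had both Mpo and Elane, at 3599 to 3844 and 5084 to 6156 CPM. Early granulocyte progenitors were lower in the monocyte program and higher in Cebpe and Gfi1. Over 8853 genes, 1.80% (159) were higher and 1.84% (163) were lower. Of 14 monocyte genes 0 were higher and 12 were lower, with a median log2 ratio of -2.33. Ly86 and F13a1 alone divided these cells, and genes of 1 program vary together. The direction of the monocyte count was thus largely set in advance. Irf8 had 18.1 to 31.4 CPM against 308 to 374 CPM, and Ly6c2, above its level in both comparators before, had 358 to 594 CPM against 794 to 1407 CPM. Cebpe had 210, 191, 196 and 217 CPM against 37.5, 46.4, 33.2 and 40.6 CPM, a median log2 ratio of 2.42, and Gfi1 stood at 1.45. Prtn3 was under the 1.5-fold rule, with 6080 to 7743 CPM against 5199 to 5740 CPM, and Prss57 was higher, with 257 to 308 CPM against 142 to 160 CPM. Cybb was lower, with 7.98 to 16.9 CPM against 38.5 to 67.4 CPM.

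The over-limit cells also differed in genes of other lineages. The basophil and mast list summed to 195.8 to 703 CPM in early granulocyte progenitors, against 24.3 to 39.2 CPM in the over-limit cells. The library 3 sum, the highest, holds 1 very rich cell described below. Of its 6 genes the list had 4 that passed the filter, through the progenitors, so their 4 higher calls do not measure the list. Cpa3 had 122 to 201 CPM against 5.32 to 8.44 CPM. Of 15 stem genes 3 were higher, Gata2 at 1.5, Angpt1 at 0.94 and Mecom at 0.78. None of these 3 was called without the progenitors that held 5 or more UMIs of the basophil and mast or eosinophil lists, where their median log2 ratios were 0.31, 0.25 and 0.64. In thinned cells, 14.6% of the over-limit cells and 55.5% of the early granulocyte progenitors held a Cebpe UMI.

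The fourth comparison was with the later granulocyte stage, cells with at least 10 UMIs of Camp and Ngp and the same monocyte and Siglech limits. There were 17 of them (6, 5, 1 and 5), so library 3 rests on 1 cell. Early granulocyte progenitors were lower in the late granule genes and higher in ribosome biogenesis. Over 8547 genes, 10.5% (897) were higher and 2.64% (226) were lower, and the median log2 ratio over all genes was 0.84, against which the ratios below are to be read. Without library 2 the higher count was 1644 and without library 4 it was 1483, and without library 3 the lower count was 401. With the ratios centred on the median of all genes the counts were 256 higher and 489 lower.

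Of 14 measured specific and gelatinase granule genes 0 were higher and 12 were lower, with a median log2 ratio of -6.28, or -6.10 with zeros set to 3 UMIs. Camp and Ngp chose the later cells, and some genes of this list passed the filter only through them. The direction of this count was thus largely set in advance. Ltf had 0 to 0.248 CPM in early granulocyte progenitors, against 1228 to 5990 CPM in the later cells. S100a8 had 720, 872, 565 and 1204 CPM against 98254, 38238, 118310 and 71547 CPM. The groups lay far apart in both genes, also without library 3. Cebpe, at 191 to 217 CPM, was below the 527 to 788 CPM of the later cells. Of 6 NADPH oxidase genes 0 were higher and 5 were lower, Cyba at -1.98 and Ncf1, its cytosolic partner p47phox, at -2.43. Of 19 ribosome biogenesis genes 12 were higher and 0 lower (median 1.91, or 0.98 with zeros set to 3 UMIs), among them the nucleolar proteins Ncl, at a median log2 ratio of 1.65, and Npm1, with 2542 to 2653 CPM against 158 to 1054 CPM.

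The progenitors were also divided by whether a Cebpe UMI was left after thinning. In cells thinned to 5000 UMIs, 427 held a Cebpe UMI and 342 did not, and the positive share was 58.5%, 53.4%, 50.3% and 60.1% in libraries 1 to 4. Without thinning the shares were 83.0%, 84.4%, 80.9% and 91.7%, against 1.06% to 2.33% of B cells by library. Many negative cells thus held a Cebpe UMI before thinning. The split is in part one of sampling, and a negative cell is not a cell without Cebpe. Cebpe-positive progenitors had more Fcgr3 and less Irf8. Over 8803 genes, 0.284% (25) were higher and 0.772% (68) were lower. Fcgr3 had 153, 128, 170 and 156 CPM in positive cells against 77.4, 72.3, 101 and 71.6 CPM in negative cells. Irf8 had 16.8, 8.42, 16 and 9.90 CPM against 25.8, 33.7, 50.5 and 35.8 CPM, from 4 to 25 UMIs per value. Neither gene overlapped between the groups. Meis1, a homeobox factor of stem cells, was lower with 14, 14, 7 and 1 UMIs in positive cells against 18, 20, 20 and 7 UMIs in negative cells. Of 15 stem genes 2 were lower and 0 higher (median -1.02).

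The split did not separate the later granulocyte genes by library. S100a8 had 1165, 749, 1104 and 1889 CPM in positive cells and 539.8, 1188, 210.1 and 815 CPM in negative cells, so library 2 went the other way. Gfi1 was higher in positive cells in each library, at 55.4 to 70.2 against 36.1 to 45.2 CPM, but under the 1.5-fold rule. Eosinophil genes Prg2 and Prg3 were higher on few counts and were not called without the progenitors rich in basophil or eosinophil transcripts. A rule over 3 libraries gave 63 to 85 higher and 171 to 180 lower genes, whichever library was left out.

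Transcripts of basophils, mast cells and eosinophils were found inside the population. Basophils and eosinophils are granulocytes too, and the 4 marker genes do not set them apart. With 5 or more UMIs of the 6 basophil and mast cell genes, 221 progenitors (28.4%, exact 95% interval 25.3% to 31.8%) stood out, at 29.9%, 32.3%, 25.6% and 25.6% by library. Another 23 (2.96%) had 5 or more UMIs of the eosinophil list, and 19 of these were in both groups. The remaining 552 (71.0%) were in neither. Median Elane was 43 UMIs in the basophil and mast group, 53 in the eosinophil group and 263 in cells of neither. Cells with such transcripts thus had fewer Elane UMIs than the remainder.

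The basophil and mast group kept Cebpe but had little S100a8. It had 579 CPM of Cpa3, 72.0 CPM of Gata2, 215 CPM of Cebpe and 17.2 CPM of S100a8. Cells of neither group had 13.5 CPM of Cpa3, 13.9 CPM of Gata2, 200 CPM of Cebpe and 1166 CPM of S100a8. Cebpe was thus at a like level in both, while S100a8 was not. The 19 cells that were also in the eosinophil group held 293 of the 1101 Cebpe UMIs of the basophil and mast group, at 716 CPM. Eosinophil transcripts came with a higher Cebpe level. The 20 cells with eosinophil genes and fewer than 10 Igkc UMIs (6, 3, 6 and 5 by library) had 7400 CPM of Prg2, the eosinophil major basic protein, 136 CPM of Epx, eosinophil peroxidase, 697 CPM of Cebpe and 11.7 CPM of S100a8. The 5-UMI limit was chosen after the data were seen, and a cell here may be 1 cell or a doublet, which was not tested.

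**Figure D5:**
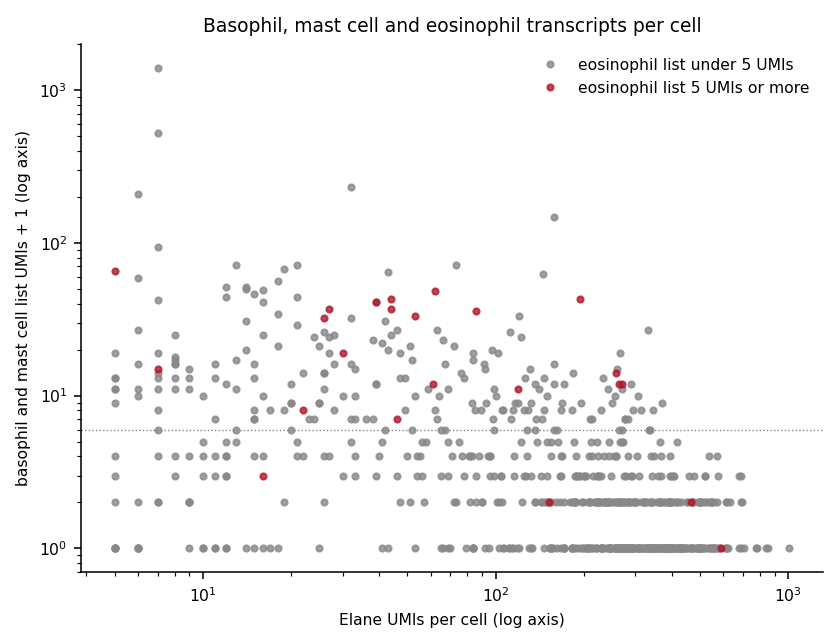
Elane UMIs per cell (log axis) against UMIs of the basophil and mast cell list plus 1 (log axis), 1 point per early granulocyte progenitor, with cells of 5 or more eosinophil UMIs in red and a dotted line at 5 UMIs. Of 777 cells 221 lie on or above the line, at a median of 43 Elane UMIs.

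For some of these genes, though not all, single cells carried much of the transcripts. A single cell of library 3, with 7 Elane and 65 Mpo UMIs, held 608 of the 952 Prss34 UMIs and 585 of the 2191 Mcpt8 UMIs of all progenitors, genes of basophil proteases. Without it library 3 had 58.4 CPM of Prss34 and 148 CPM of Mcpt8, against 187 and 271 CPM with it. A single cell of library 4 held 983 of 3203 Prg2 UMIs, without which library 4 had 115 CPM instead of 358 CPM. In 3 other cells, 1 each of libraries 1, 2 and 4, were 16602 Igkc UMIs and 2022 of the 2096 Jchain UMIs of the population, both antibody genes of plasma cells, beside 33 Prg2 UMIs. Cpa3 and Prg3 were spread more widely, with 114 of 3122 and 80 of 606 UMIs in the richest cell.

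Summed marker lists of other cells were low beside the remaining kept cells. The basophil and mast list stood out at 195.8 to 703 CPM, against 35.3 to 64.6 CPM, with 6 of 6 genes detected, and the eosinophil list had 39.1 to 415 CPM, against 14.6 to 34.5 CPM, with Ear6 at 0. The lymphoid-primed list had 26.9 to 37.1 CPM against 314 to 415 CPM, the B lineage list 32.0 to 53.9 CPM against 168 to 242 CPM, the megakaryocyte list 39.7 to 84.0 CPM against 334 to 512 CPM and the erythroid list 8.48 to 50.8 CPM against 93.9 to 126 CPM. The T and NK list had 0.212 to 1.24 CPM against 6.00 to 8.92 CPM, with Cd3e, Cd3g and Ncr1 at 0. The plasma list had 116 to 332 CPM against 569 to 1257 CPM, and the dendritic list 482 to 578 CPM against 714 to 799 CPM, with Cd209a at 0. The macrophage list had 39.0 to 52.5 CPM against 15.8 to 30.5 CPM, with Vcam1 at 31.8 to 40.9 CPM of it.

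Over all libraries together, early granulocyte progenitors carried somewhat fewer transcripts of division than their neighbours. In thinned cells the 30 S phase genes had a median of 13 UMIs per cell in early granulocyte progenitors, 16 in monocyte-side cells, 16 in over-limit cells and 18 in Elane-negative cells. The 37 genes of G2 and M phase had medians of 24, 30, 27 and 28 UMIs. By library this order did not always hold: the G2 and M median was 24 against 18.5 in monocyte-side cells in library 4, and 23 against 22.5 in over-limit cells in library 1. A UMI of Mki67, a protein of dividing cells, was found in 50.6% of thinned early granulocyte progenitors, or 44.6% to 59.6% by library. The share was 66.4% in monocyte-side cells, 65.7% in over-limit cells, 65.4% in Elane-negative cells and 24.2% in B cells. Without thinning it was 77.9% in early granulocyte progenitors. By Elane class the thinned shares were 58.5%, 57.6%, 46.5% and 47.3%. Library 1 did not follow this order, with 45.7%, 58.5%, 43.6% and 57.1%, and the G2 and M medians by class were 30, 20, 21 and 28 UMIs. Of 37 genes of G2 and M phase, 0 were higher and 7 lower than in Elane-negative cells (median -0.39), Mki67 at -1.02. Of 30 S phase genes 1 was higher, Rrm2, a ribonucleotide reductase subunit, and 1 lower, Uhrf1, a methylation-copying factor (median -0.28).

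Srcap was detected in the progenitors of each library. It had 38.4, 52.4, 37.5 and 32.5 CPM in early granulocyte progenitors and 60.0, 75.6, 52.3 and 50.5 CPM in Elane-negative progenitors. Within each library the early granulocyte progenitors were lower, by a median log2 ratio of -0.57, but it was not called, and the groups overlap across libraries. Along Elane, Srcap had 55.5, 47.4, 39.1 and 23.8 CPM from the lowest class to the highest. Of 12 genes of the SRCAP complex and H2A.Z, 1 was higher, the zinc finger subunit Znhit1, with 74.3 to 92.7 CPM against 41.0 to 44.9 CPM, and 0 were lower (median -0.07). Since the suffixes have no genotype, these levels check no label.

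Few genes set 1 library of progenitors apart from the others. Over 2953 genes at 50 CPM or more in the highest library, the share at least 1.5-fold above each of the other libraries was 0.0339% (1 gene) in library 1, 0.169% (5) in library 2, 0.0677% (2) in library 3 and 0.0339% (1) in library 4. The shares below each of the others were 0.0339% (1), 0.0339% (1), 0.237% (7) and 0.0677% (2). With scaling by the median ratio over genes, 1 gene instead of 5 was above the others in library 2. Several are the genes that single cells carried, such as Prss34 and Mcpt8 in library 3 and Prg2 in library 4. Prg2 was also highest in library 4 in Elane-negative cells, at 79.7 CPM against 0.548 to 34.3 CPM. Prss34 was also highest in library 3 there, at 26.0 CPM against 0.395 to 7.05 CPM, but Mcpt8 was not. Usp9x, a deubiquitinase, had 47.9, 81.6, 50.3 and 52.3 CPM in the early granulocyte progenitors and 70.2, 98.8, 71.0 and 76.0 CPM in Elane-negative cells, so library 2 was highest in both. The histone gene Hist1h2ap had 1403, 952, 494 and 1005 CPM in early granulocyte progenitors and 1769, 1088, 739.7 and 1242 CPM in Elane-negative cells, lowest in library 3 in both. Jchain was lowest in library 3 as well, at 4.45 CPM in the early granulocyte progenitors, but without its richest cell library 2 had 3.58 CPM, against 212 CPM with it. In Elane-negative cells Jchain had 102, 96.3, 4.72 and 161 CPM, so library 3 was lowest there too. Cpa3 was lowest in library 4, with 195, 201, 196 and 122 CPM. In Elane-negative cells Cpa3 had 70.1, 68.5, 85.2 and 85.8 CPM, so library 4 was not lowest there. The lowest Elane class, where Cpa3 was highest, held the fewest cells in library 4. Its part in this difference was not tested.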

How the data were processed

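The authors deposited 1 aggregated matrix of UMI counts per gene and cell (32285 genes, 44151 barcodes), with no scaling per cell. Per the file headers the software was Cell Ranger 6.1.2. The submitters' processing notes name the build mm10. Whether depth was evened out at aggregation is not given in the sources used here. The number of columns of per-sample values not used was 0. The members and gene lists were chosen with earlier results of these data known.

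Cells were filtered and gated as the report states. Sums of UMIs for each class in each library were turned into CPM over all genes and compared within a library as log2 ratios with a pseudocount of 1 CPM. Genes needed a mean of 5 CPM, and gating genes were left out of the counts. In the comparisons no ratio is given for a gene with 3 or fewer UMIs on a side in a library. The turned ratios listed under the alternatives were not held to this limit. Thinning drew 5000 UMIs per cell (seed 1). Named genes were, per comparison, the 12 highest and 12 lowest by their least extreme library, where the higher class reached 50 CPM, plus 4 members of each list with the largest ratios and any member called; the text gives a selection of them. Gating, ribosomal protein, mitochondrial, immunoglobulin and unnamed genes were left out of that ranking. Genes named along Elane, at the limits and in single cells were chosen after their values were seen. The calling rule was tested on simulated data.

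The comparison of Mut with WT by edgeR, with DESeq2 and the replicate block as alternatives, was not run, because suffixes could not be mapped to samples. Doublet calling with Scrublet (in Scanpy 1.11.5, 8% expected) marked 0, 0, 1 and 0 cells in libraries 1 to 4, so its calls were not used. B cells for background shares had at least 2 UMIs each of Ms4a1 and Cd79a. Gene IDs were matched to GENCODE for GRCm38 for 32158 of 32285 genes, and promoters are from RefSeq. Intervals are exact binomial (Clopper-Pearson) and cover counting error only. Python 3.11.15, numpy 2.4.6, scipy 1.17.1 and pandas 2.3.3 were used. Alternatives were the gene filter, the pseudocount, gate limits, thinning before gating, centring, a 5% mitochondrial limit, leaving out the highest 8% of doublet scores or cells with 10 or more Igkc UMIs, each library left out, and members without other-lineage transcripts. A single gene is not reported here.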

Additional observations from a re-analysis of the deposited data

How the results depend on the processing

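The share of early granulocyte progenitors among kept cells was 1.75% with Mpo and Elane limits of 10 UMIs. It was 1.34% without progenitors holding basophil, mast or eosinophil transcripts, an alternative chosen after seeing the data. With the rule applied to cells thinned to 5000 UMIs it was 2.32% (907 cells). That share is of the kept cells with at least 5000 UMIs, not of all kept cells. Without 1 library each the share of all kept cells was 1.84% to 1.93%. With the 8% of cells of highest doublet score per library left out it was 1.79%, and the counts against Elane-negative progenitors were 469 higher and 1005 lower. A 5% mitochondrial limit gave a share of 2.02%, and leaving out cells with 10 or more Igkc UMIs gave 1.88%.

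A 20 CPM filter left 460 lower genes against Elane-negative progenitors, 242 higher and 249 lower genes against monocyte-side progenitors, 464 higher genes against the cells with 10 or more Camp and Ngp UMIs, and 82 higher and 76 lower genes against the cells over the Ly86 and F13a1 limit. In the split by Cebpe it left 7 higher and 21 lower genes, since fewer genes were tested. With no filter the counts were 2598 higher against the cells with 10 or more Camp and Ngp UMIs, 246 lower against the over-limit cells, and 57 higher and 104 lower by Cebpe. A pseudocount of 5 CPM gave 11 higher and 37 lower genes by Cebpe. Centring gave 256 higher and 489 lower genes against the cells with 10 or more Camp and Ngp UMIs, where the medians of the homologous recombination and interferon lists turned to -0.062 and -0.46.

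Without 1 library each, when 3 libraries had to share a direction, the counts of higher and lower genes were 453 to 475 and 999 to 1084 against Elane-negative cells, 420 to 446 and 557 to 576 against monocyte-side cells, 1037 to 1644 and 295 to 401 against the cells with 10 or more Camp and Ngp UMIs, 177 to 192 and 171 to 194 against the over-limit cells, and 63 to 85 and 171 to 180 by Cebpe.

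Gating thinned cells left 23 monocyte-side cells (6, 6, 2 and 9) and 208 lower genes, and ratios against them turned to 1.13 for the median of the MHC class II list, 2.65 for Cd74, 3.49 for H2-Aa, 3.22 for H2-Eb1, 1.57 for Ly6a, 1.44 for Xaf1, 0.66 for Zfp36, 1.38 for Hbb-bt, 1.35 for Il7r, 0.21 for Lgals3, 0.21 for Clec9a and 0.058 for Cox6a2. The cause was not tested. These ratios, and that of Prg3 below, were not held to the limit on low UMI counts. Prg3 turned to -0.053 against the over-limit cells without progenitors holding basophil or eosinophil transcripts. Of the remaining values for single named genes, 8959 kept their side of the 1.5-fold rule, 205 came to pass it and 241 no longer did. A turn of direction was looked for only in genes called in the main setting. Of the list medians, 1275 kept within the spread of the libraries and 164 moved beyond it. With median-ratio scaling 17 gene and library pairs stood apart between libraries, against 20.

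No paired analysis was possible because the libraries carry no replicate numbers or genotypes. For the same reason the edgeR and DESeq2 comparisons of Mut with WT were not run. The main limits are depth in genes under about 20 CPM, the 17 and 137 cells of the smaller comparators, and doublets, which no working caller removed.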
